A study of Rattus norvegicus with 294 samples.

Results

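Proteasome subunit genes were followed through 294 expression arrays of vertebral bone cells from rats treated with an antibody against sclerostin. The members were all genes with a symbol starting Psma, Psmb, Psmc, Psmd or Psme and a digit, read from probe sets that name 1 gene alone, and each gene was represented by its probe set of highest mean. The rule gave 41 of the 14217 genes that the arrays measure in this way. In the core particle they were 7 genes of the alpha ring (Psma1 to Psma7), 6 of the constitutive beta ring (Psmb1 to Psmb5 and Psmb7) and 3 immunoproteasome genes (Psmb8, Psmb9 and Psmb10). In the regulatory particle they were 6 ATPases (Psmc1 to Psmc6) and 14 other genes (Psmd1 to Psmd14, assembly chaperones included). The activators gave 3 genes (Psme1, Psme2 and Psme4). Psmc3ip and Psme3ip1 came in by their letters only: the first encodes a meiotic recombination factor and the second a protein that binds the activator Psme3. Psmb6 and Psme3 themselves lay only on 5 probe sets that name several genes and were not measured here.

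Female Sprague-Dawley rats had been ovariectomized at 6 months of age and left without treatment for 8 weeks, so vehicle rats and treated rats alike lacked ovaries. They were then injected under the skin once a week with vehicle (Tween 20, sucrose and sodium acetate) or with Scl-Ab, a sclerostin antibody made to be less immunogenic in rats, at a dose of 3 or 50 mg/kg. Cells were captured by laser from sections of the third lumbar vertebra in material enriched for osteoblasts (97 arrays, 40 of vehicle rats), lining cells (100 arrays, 40 of vehicle rats) and osteocytes (97 arrays, 40 of vehicle rats). Captures were made on days 8, 29, 85 and 183 of dosing at each dose. After dosing had ended on day 183, captures were made on days 197 and 267 from rats that had received 3 mg/kg and on days 237 and 309 from rats that had received 50 mg/kg, each beside vehicle rats of the same day. The 60 groups held 5 arrays each, with 5 exceptions. The osteoblast groups of 3 mg/kg on day 8, of 50 mg/kg on day 85 and of day 237 after 50 mg/kg held 4 arrays, as did the osteocyte group of 3 mg/kg on day 29. The osteocyte group of 50 mg/kg on day 85 held 3. The number of arrays limits the precision. The labels do not name the rat behind an array, so p-values measure the spread between these arrays, part of which may be technical, and captures of different cell types may come from 1 rat.

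The proteasome is the protease that breaks down proteins tagged with ubiquitin in the cytosol and nucleus. Its core particle is a barrel of stacked alpha and beta rings with the cutting sites inside the beta rings. The regulatory particle caps the barrel, recognizes ubiquitin, removes it and threads the unfolded protein inwards. Interferon and immune cells bring in the immunoproteasome subunits, which replace the catalytic beta subunits and change the peptides made for antigen presentation, and the activator PA28 (Psme1 and Psme2). Among the proteins that the proteasome removes are beta-catenin, the effector of the Wnt pathway that sclerostin restrains, and Runx2, a transcription factor of osteoblasts, and drugs that block the proteasome are known to change bone formation.

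Values are log2 of the deposited signal, on which a difference of 1 is a 2-fold change, and a gene is said to have risen, fallen or been called where limma's adjusted p was under 0.05 over all genes of the fit. All 41 genes passed the filter on dim probe sets in every fit. Overlap between groups of arrays describes the genes named and was not counted over all genes. The signal range, the 90th minus the 50th percentile of an array's log2 values, ran from 2.55 to 3.69 in osteoblasts, 2.43 to 3.54 in lining cells and 2.46 to 3.44 in osteocytes. It moved between groups and days as given beside the results. Array numbers fall into 3 runs (days 8 to 85, day 183, days 197 to 309), each with all doses of its days. Levels were compared between days within a run only, and responses, each against vehicle arrays of its own day, also between runs. After joint quantile normalization of vehicle arrays, 5 of 5 osteocyte markers were lower in osteoblast than in osteocyte captures (Dmp1 7.05 against 10.82). The marker comparisons between cell types given here are all on that scale, not the deposited one. They were not made under other scalings. Against the label, 5 of 5 osteoblast markers were also lower in osteoblast than in osteocyte captures (Ibsp by a log2 difference of −1.99, Bglap −1.25), while 3 of 5 were higher in osteoblast than in lining cell captures. Leukocyte (6 of 9), erythroid (5 of 6), granulocyte (3 of 3), megakaryocyte (5 of 5) and endothelial markers (4 of 5) were higher in osteoblast than in osteocyte captures. In captured tissue, fewer cells of a type and less RNA per cell cannot be told apart.

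The 4 genes with the largest rises on day 8 in osteoblasts at 50 mg/kg (Psmd9, Psmb2, Psmb3 and Psmb7) are shown with the 250 bases before their start sites, since many proteasome genes are known to share promoter elements. Sequences are from RefSeq on the rat build GRCr8, on the gene's strand, 5′ to 3′. Capitals mark CCAAT (the CCAAT box, bound by NF-Y) and TGACNNNGC (the core of the antioxidant response element, bound by factors such as Nrf1 and Nrf2) on either strand.
Psmd9, an assembly chaperone of the regulatory particle, chr12:39018265-39018514, minus strand: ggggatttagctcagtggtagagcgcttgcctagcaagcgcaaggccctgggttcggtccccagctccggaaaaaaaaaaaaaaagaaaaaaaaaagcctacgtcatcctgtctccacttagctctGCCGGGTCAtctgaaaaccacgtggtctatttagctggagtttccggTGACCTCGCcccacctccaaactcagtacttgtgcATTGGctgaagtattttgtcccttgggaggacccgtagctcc
Psmb2, a beta ring subunit, chr5:144254808-144255057, plus strand: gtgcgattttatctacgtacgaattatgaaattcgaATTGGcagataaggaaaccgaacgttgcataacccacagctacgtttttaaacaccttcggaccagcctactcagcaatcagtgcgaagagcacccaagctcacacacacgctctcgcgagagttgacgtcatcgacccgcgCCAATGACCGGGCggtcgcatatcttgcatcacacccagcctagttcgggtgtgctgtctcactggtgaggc
Psmb3, a beta ring subunit, chr10:83193537-83193786, plus strand: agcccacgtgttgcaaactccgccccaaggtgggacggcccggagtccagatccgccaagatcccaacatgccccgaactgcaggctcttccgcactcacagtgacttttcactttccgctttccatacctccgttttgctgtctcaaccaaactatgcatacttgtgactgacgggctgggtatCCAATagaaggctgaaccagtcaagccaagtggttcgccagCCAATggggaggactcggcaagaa
Psmb7, the beta subunit with trypsin-like activity, chr3:42827471-42827720, minus strand: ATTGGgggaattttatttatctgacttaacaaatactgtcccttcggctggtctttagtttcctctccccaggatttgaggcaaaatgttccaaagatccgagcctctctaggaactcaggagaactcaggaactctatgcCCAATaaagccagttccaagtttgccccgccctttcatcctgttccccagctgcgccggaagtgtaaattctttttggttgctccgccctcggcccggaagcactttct

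The Psmd9 window held the antioxidant core as TGACCTCGC, 77 bases before the start on the gene's strand, and as GCCGGGTCA, 124 bases before the start on the other strand, with a CCAAT box 42 bases before the start on the other strand. The Psmb2 window held TGACCGGGC 68 bases before the start, overlapping by 1 base a CCAAT box 72 bases before the start, and another CCAAT box 214 bases before the start on the other strand. The windows of Psmb3 (65 and 24 bases before the start) and Psmb7 (109 bases, and 250 bases on the other strand) held CCAAT boxes and no antioxidant core. RefSeq windows matched 37 of the 41 genes, all but Psma7, Psmd6, Psmd12 and Psmd14. Of these 37, the antioxidant core was in 6 (16.2%, against 10.1% of 33469 rat promoters), the CCAAT box in 19 (51.4%, against 34.0%) and the ETS core CCGGAAG in 11 (29.7%, against 7.3%). The core of the interferon-stimulated response element, GAAA and GAAA with any 2 bases between them, was in 5 (13.5%, against 3.4%). The antioxidant core was in 4 of the 19 matched genes that rose in osteoblasts at 50 mg/kg on day 8 (Psmb2, Psmb5, Psmd1 and Psmd9) and in 2 of the other 18 (Psma3 and Psme4). The CCAAT box was in 9 of the 19 and 10 of the 18, the ETS core in 5 and 6, and the interferon element core in 3 and 2. A match is a description of letters in the window and not of a bound site.

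Osteoblast captures of day 8 showed the widest rise of these genes. At 50 mg/kg, 20 of the 41 genes rose and none fell, where 8.19% of all 11412 genes tested were called and 5.21% rose. The 41 log2 differences were all above 0, from 0.01 to 1.22, with a median of 0.49 against 0.03 over all genes. The rise took in all 6 constitutive beta genes (median 0.71), 3 of 7 alpha genes (0.61), 3 of 6 ATPases (0.51), 4 of 14 other regulatory particle genes (0.34), 2 of 3 activator genes (0.54) and 2 of 3 immunoproteasome genes (0.45). In each of the 20 genes, 5 of 5 treated arrays lay above the vehicle mean. The genes were called on these same arrays, so this adds no separate support.

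**Figure D1:**
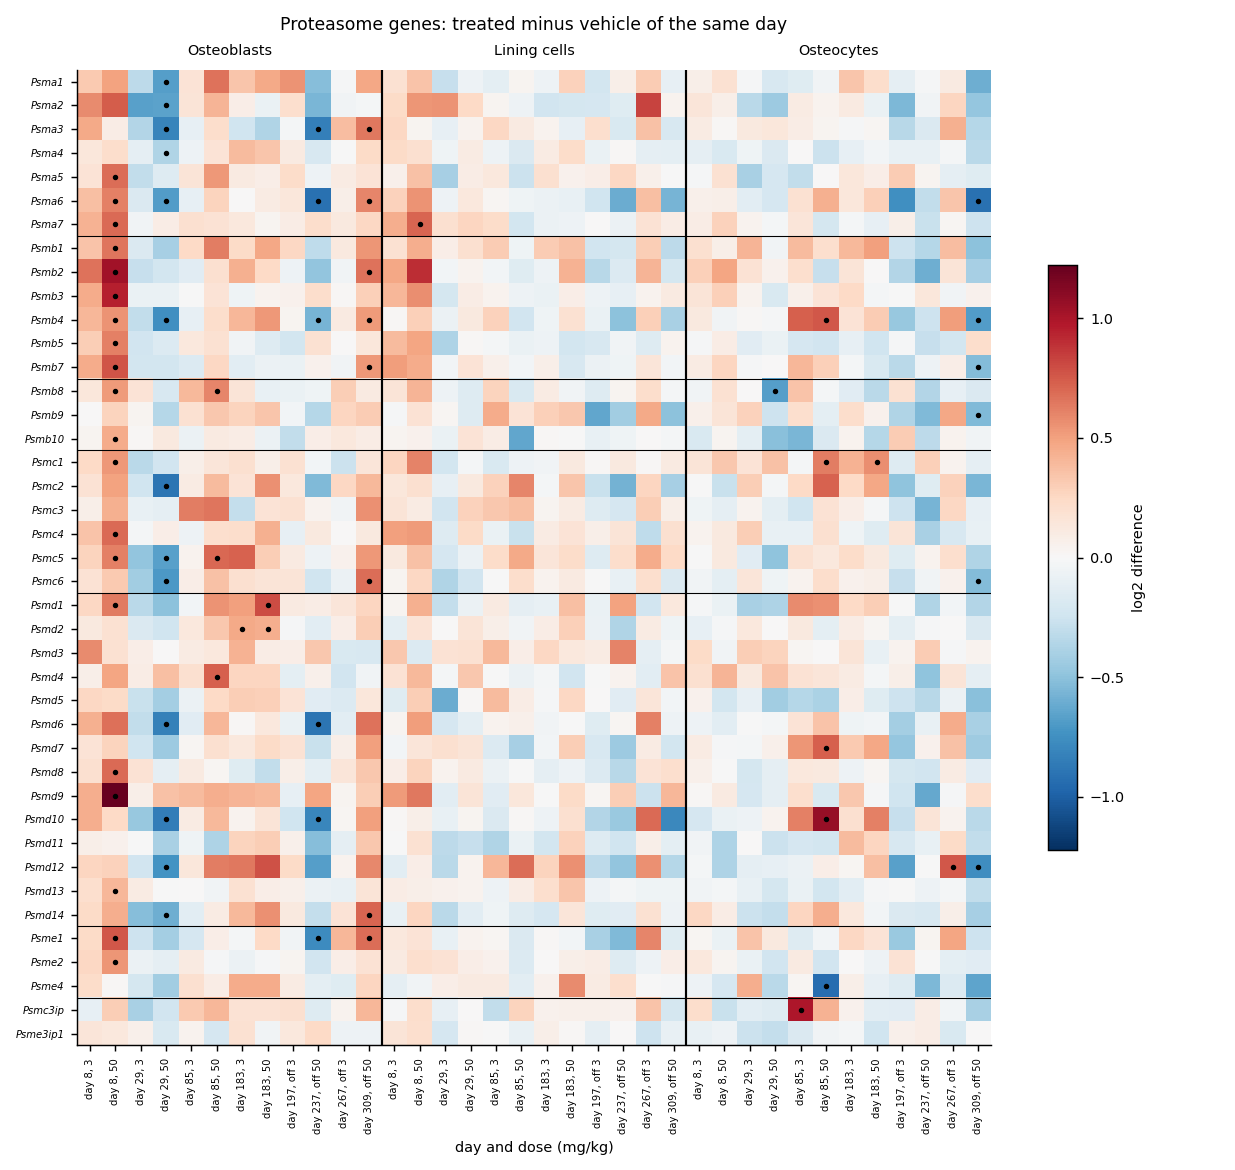
Log2 differences between treated and vehicle arrays (colour) for 41 proteasome genes (vertical, grouped by role) in 36 comparisons of dose and day (horizontal, 12 for each cell type), with a dot where limma's adjusted p was under 0.05. In osteoblasts at 50 mg/kg, 20 genes were higher on day 8 (5.21% of all genes) and 13 lower on day 29 (20.6%). Lining cells hold 1 call, at 50 mg/kg on day 8, where 0.621% of all genes were called.

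Among the core particle genes, Psmb2 had vehicle values of 5.48, 6.01, 6.02, 6.03 and 6.41, values of 6.08, 6.46, 6.87 and 7.22 at 3 mg/kg and values of 6.57, 6.95, 7.04, 7.16 and 7.40 at 50 mg/kg. Every 50 mg/kg array was above every vehicle array, and the difference was 1.03 ± 0.22 (SE, limma adjusted p = 0.00135). Psmb3 had vehicle values of 8.04, 8.13, 8.34, 8.42 and 8.67, 8.39, 8.48, 9.05 and 9.19 at 3 mg/kg and 8.99, 9.15, 9.32, 9.38 and 9.54 at 50 mg/kg (0.95 ± 0.17, adjusted p = 0.00014). Its 50 mg/kg arrays also lay wholly above vehicle, with the 3 mg/kg arrays partly among the vehicle arrays.

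Psmb5 encodes the subunit with chymotrypsin-like activity. It had vehicle values of 8.92, 8.99, 9.04, 9.04 and 9.08, 8.99, 9.10, 9.47 and 9.70 at 3 mg/kg and 9.46, 9.55, 9.69, 9.72 and 9.75 at 50 mg/kg. Vehicle and 50 mg/kg did not overlap, and the rise was 0.62 ± 0.14 (adjusted p = 0.00176). Psmb7, which carries the trypsin-like activity, had vehicle values of 5.91, 6.13, 6.17, 6.31 and 6.77 and 50 mg/kg values of 6.69, 6.91, 7.06, 7.22 and 7.25 (0.77 ± 0.17, adjusted p = 0.00217). Only its lowest treated array lay within the vehicle range. The non-catalytic beta genes Psmb1 (0.66 ± 0.22, adjusted p = 0.0466) and Psmb4 (0.55 ± 0.18, adjusted p = 0.0457) rose with no overlap between vehicle and 50 mg/kg.

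The alpha ring forms the gate of the barrel. Psma7 rose by 0.70 ± 0.17 (adjusted p = 0.00597), from vehicle values of 7.83, 7.88, 8.14, 8.46 and 8.50 to 8.58, 8.72, 8.88, 8.93 and 9.17 at 50 mg/kg. Psma5 (0.69 ± 0.21, adjusted p = 0.0277) and Psma6 (0.61 ± 0.19, adjusted p = 0.0302) rose as well, and the vehicle and 50 mg/kg arrays of all 3 genes were apart. Psma2 was also apart, with a difference of 0.74 that did not pass (adjusted p = 0.0522).

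In the regulatory particle, the largest rise was that of Psmd9, the chaperone whose window is printed above. Its vehicle values were 5.85, 6.22, 6.40, 6.50 and 6.83, its 3 mg/kg values 6.38, 6.58, 6.61 and 7.65, and its 50 mg/kg values 7.24, 7.48, 7.48, 7.75 and 7.97 (1.22 ± 0.21, adjusted p = 8e-05). The 50 mg/kg arrays were all above vehicle, and 1 of the 4 arrays of 3 mg/kg was among them. Of the ATPases, which unfold the substrate, Psmc4 (0.69 ± 0.18, adjusted p = 0.00849), Psmc5 (0.61 ± 0.21, adjusted p = 0.0482) and Psmc1 (0.53 ± 0.14, adjusted p = 0.00861) rose, each with some overlap between the groups. The lid subunits Psmd8 (0.69 ± 0.17, adjusted p = 0.00587) and Psmd13 (0.40 ± 0.13, adjusted p = 0.037) and the scaffold subunit Psmd1 (0.64 ± 0.21, adjusted p = 0.0378) rose. The ubiquitin receptor Psmd4 had a difference of 0.48 ± 0.21 that did not pass (adjusted p = 0.161).

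**Figure D2:**
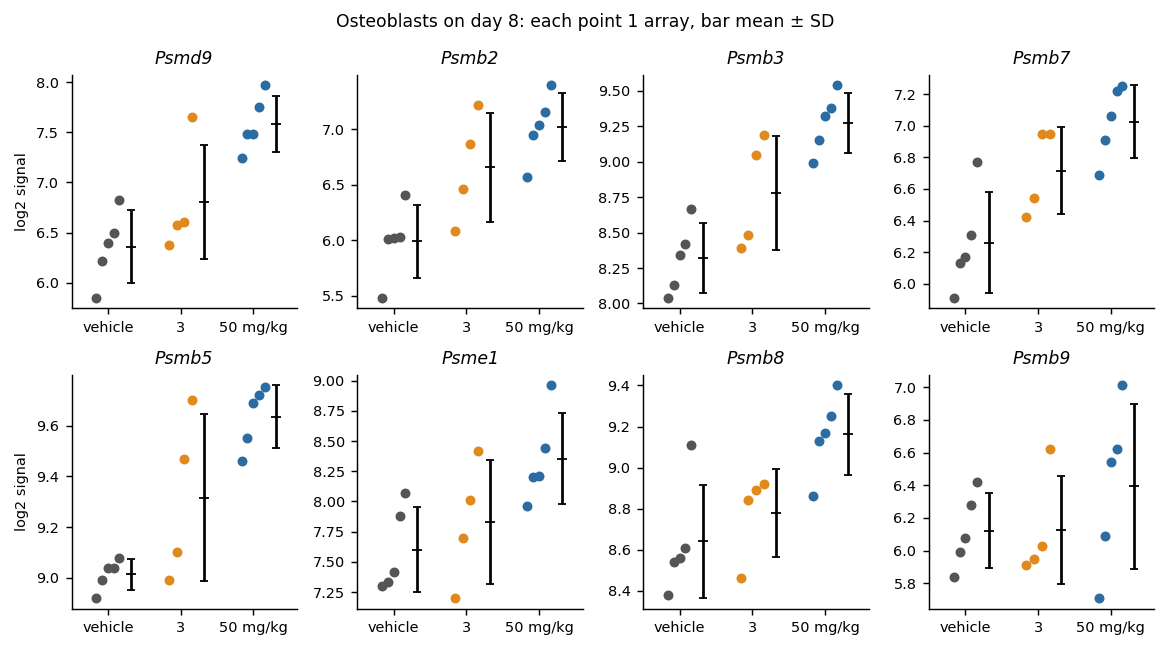
Log2 signal of 8 proteasome genes (vertical) in each osteoblast array of day 8 (points), with the mean and SD of the vehicle, 3 mg/kg and 50 mg/kg groups. Psmd9, Psmb2, Psmb3 and Psmb5 have no overlap between vehicle and 50 mg/kg, Psmb7, Psme1 and Psmb8 overlap in part, and Psmb9 overlaps widely.

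Of the activators, both subunits of PA28, a ring that opens the gate without ATP, rose. Psme1 had vehicle values of 7.30, 7.33, 7.42, 7.88 and 8.07 and 50 mg/kg values of 7.96, 8.20, 8.21, 8.44 and 8.96 (0.76 ± 0.23, adjusted p = 0.0264), and Psme2 rose by 0.54 ± 0.15 (adjusted p = 0.0119). The groups of Psme1 overlapped and those of Psme2 did not. Psme4, the single-chain activator PA200, had a difference of 0.01. Of the immunoproteasome genes, Psmb8 rose by 0.52 ± 0.16 (adjusted p = 0.0214), from vehicle values of 8.38, 8.54, 8.56, 8.61 and 9.11 to 8.86, 9.13, 9.17, 9.25 and 9.40. Psmb10 rose by 0.45 ± 0.14 (adjusted p = 0.0312), while Psmb9 had a difference of 0.27 ± 0.23 (adjusted p = 0.545). The vehicle and 50 mg/kg arrays of all 3 immunoproteasome genes overlapped.

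The smaller dose gave differences mostly of the same sign that were not called. At 3 mg/kg on day 8 limma called none of the 41 genes (0% of all genes were called), with 10 members and 791 genes in all at an unadjusted p under 0.05. Of the 41 differences, 40 were above 0 (median 0.25). With both doses together 7 genes rose (3.64% of all genes were called, 2.52% rose): Psmb2 0.85, Psmd9 0.83, Psmb3 0.70, Psmb7 0.61, Psma7 0.56, Psmc4 0.52 and Psmb5 0.46. The difference between the doses on day 8 was itself not called for any of the 41 genes (0.0263% of all genes were called, 9 members were at an unadjusted p under 0.05). Its median was 0.27, with the largest value for Psmd9 (0.78, adjusted p = 0.364). The mean over the 36 constitutive genes was 7.06 ± 0.21 (SD, n = 5) for vehicle, 7.36 ± 0.36 (n = 4) for 3 mg/kg and 7.58 ± 0.16 (n = 5) for the larger dose, and 8 of 9 treated arrays lay above the vehicle mean.

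Of the listed genes that act around the proteasome, 2 of 7 assembly factors rose at 50 mg/kg on day 8. These were Psmf1, a proteasome inhibitor protein (0.96 ± 0.19, adjusted p = 0.000508), and Pomp, the chaperone that builds the core particle (0.58 ± 0.15, adjusted p = 0.00628). None of 12 genes of proteasome-associated proteins and of its gene control, 5 of the ubiquitin and p97 system, 8 of antigen processing and 13 of the interferon response was called. Erythroid markers rose in the same contrast, 5 of 6 of them (Car1 1.79, Alas2 1.05, Epb42 0.96, Ahsp 0.66 and Hbb 0.34). Their mean ran from 8.81 to 9.33 in vehicle arrays, 9.14 to 9.95 at 3 mg/kg and 9.36 to 10.47 at 50 mg/kg. Both osteoclast markers tested fell (Acp5 −1.16, Ctsk −1.15), from means of 8.73 to 9.28 in vehicle arrays to 7.70 to 8.38. Of the leukocyte markers 1 of 9 rose. What part these markers had in the result was not tested. The mean signal range was 3.48 for vehicle, 3.54 for the small and 3.52 for the large dose. The count of 20 became 7 without 50 mg/kg array 2, 8 without vehicle array 3, 11 without vehicle array 2 and 13 without 50 mg/kg array 5. The count of 7 over both doses lay between 2 (without vehicle array 3) and 12 (without 3 mg/kg array 3). It was 4 without 3 mg/kg array 2 or 4. Psmd9, Psmb2, Psmb3, Psmb5, Psmb7 and Psma7 kept their calls at 50 mg/kg in every setting and with each array left out. The calls of Psmb8 and Psmb10 ended with 4 and 6 of the 10 arrays left out in turn.

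On day 29 the same contrast held falls in place of rises. At 50 mg/kg 13 of the 41 genes fell and none rose in osteoblasts, where 28.4% of all genes were called (20.6% fell), and the median difference was −0.35 against −0.08 over all genes. The falls were in 5 of 7 alpha genes, 3 of 6 ATPases, 4 of 14 other regulatory particle genes and 1 of 6 constitutive beta genes, and in none of the immunoproteasome and activator genes. Psmc2, an ATPase, fell by 0.90 on the log2 scale (SE 0.22, adjusted p = 0.00121), from vehicle values of 7.53, 7.79, 8.49, 8.65 and 8.76 to 7.00, 7.10, 7.19, 7.51 and 7.93 at 50 mg/kg. Its groups overlapped, as did those of all but 1 of the 13 genes. Psma3 was the exception, with vehicle values of 4.21, 4.35, 4.58, 4.69 and 5.25, 3.68, 4.22, 4.36, 4.42 and 4.60 at 3 mg/kg and 3.57, 3.71, 3.79, 3.95 and 4.02 at 50 mg/kg (−0.81 ± 0.19, adjusted p = 0.00101). Its 50 mg/kg values lay near the array medians of that group (3.52 to 3.62). A further probe set, which names both Psma3 and Psma3l, was not used.

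Psmd10, known as gankyrin and a chaperone of the ATPase ring, had vehicle values of 6.42, 6.99, 7.22, 7.45 and 7.64 on day 29 and 50 mg/kg values of 6.02, 6.09, 6.30, 6.32 and 6.75 (−0.85 ± 0.25, adjusted p = 0.00797). Psmb4, the beta gene that fell, had vehicle values of 8.68, 8.86, 9.07, 9.19 and 9.36 and 50 mg/kg values of 7.82, 8.09, 8.13, 8.56 and 8.78 (−0.75 ± 0.18, adjusted p = 0.0013). The lid subunit Psmd6 fell by 0.83, Psmd12 by 0.73 and Psmd14, the deubiquitinase of the lid, by 0.60 on the log2 scale, and the ATPases Psmc6 by 0.71 and Psmc5 by 0.67. The catalytic genes Psmb5 (−0.17) and Psmb7 (−0.22), the PA28 genes Psme1 (−0.42) and Psme2 (−0.11) and the immunoproteasome genes Psmb8 (−0.20), Psmb9 (−0.35) and Psmb10 (0.12) did not pass.

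Over both doses 9 genes fell on day 29 (15% of all genes were called, 12.4% fell). At 3 mg/kg none was called (0.0701% of all genes), with 6 members and 1240 genes in all at an unadjusted p under 0.05 in limma. The mean over the constitutive genes was 7.37 ± 0.31 (SD, n = 5) for vehicle, 7.16 ± 0.36 (n = 5) for 3 mg/kg and 7.01 ± 0.15 (n = 5) for 50 mg/kg. Of the listed genes, 8 of 12 proteasome-associated and gene-control genes fell at 50 mg/kg. Among them were Txnl1 (−1.46), a thioredoxin bound to the regulatory particle, Uchl5 (−1.13), a deubiquitinase, and Ubqln2 (−1.07), a ubiquitin shuttle. The falls also took in 2 of 5 ubiquitin and p97 genes, 2 of 8 antigen processing genes and 2 of 13 interferon response genes, and none of 7 assembly factors. Markers moved as well: 3 of 5 osteoblast markers rose and 1 fell, 3 of 9 leukocyte markers and both osteoclast markers fell, and 3 of 5 megakaryocyte markers rose. Also, 1 of 2 B-lineage markers fell, and of 5 endothelial markers 1 rose and 1 fell. Their part was not tested.

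The signal range of the day 29 osteoblast arrays was 3.43 to 3.65 in vehicle and 2.96 to 3.34 at 50 mg/kg, with no overlap. With the signal range as a covariate none of the 41 genes was called at 50 mg/kg or over both doses, and after quantile normalization 3 rose and 7 fell at 50 mg/kg. Over all genes, 886 rose and 2355 fell at 50 mg/kg (1112 and 1361 after quantile normalization). Over both doses 302 rose and 1411 fell (444 and 690). The count of 13 became 8 without vehicle array 1. The count over both doses lay between 1 (without vehicle array 2) and 14 (without vehicle array 4). It was 2 without vehicle array 1, 4 without vehicle array 5 or 3 mg/kg array 2, and 5 without 3 mg/kg array 3 or 50 mg/kg array 2.

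The difference between the day 8 and day 29 responses was tested directly, in a contrast added after the data were seen. The response to 50 mg/kg was higher on day 8 than on day 29 for 26 of the 41 genes and lower for none (14% of all genes were called, 12% higher), with a median difference of 0.80 against 0.08 over all genes. These were all 6 constitutive beta genes, 6 of 7 alpha genes, 4 of 6 ATPases, 7 of 14 other regulatory particle genes, 2 of 3 activator genes and 1 of 3 immunoproteasome genes. Psmd6 (1.50), Psma2 (1.40), Psmc2 (1.39) and Psmb4 (1.30) had the largest differences. Of the 20 genes that rose on day 8 and the 13 that fell on day 29, which rest on different vehicle arrays, 3 were shared (Psma6, Psmb4 and Psmc5, 15% of the first and 23.1% of the second). The shared number was not computed over all genes. The count of 26 was 16 after quantile normalization and 0 with the signal range as covariate.

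**Figure D3:**
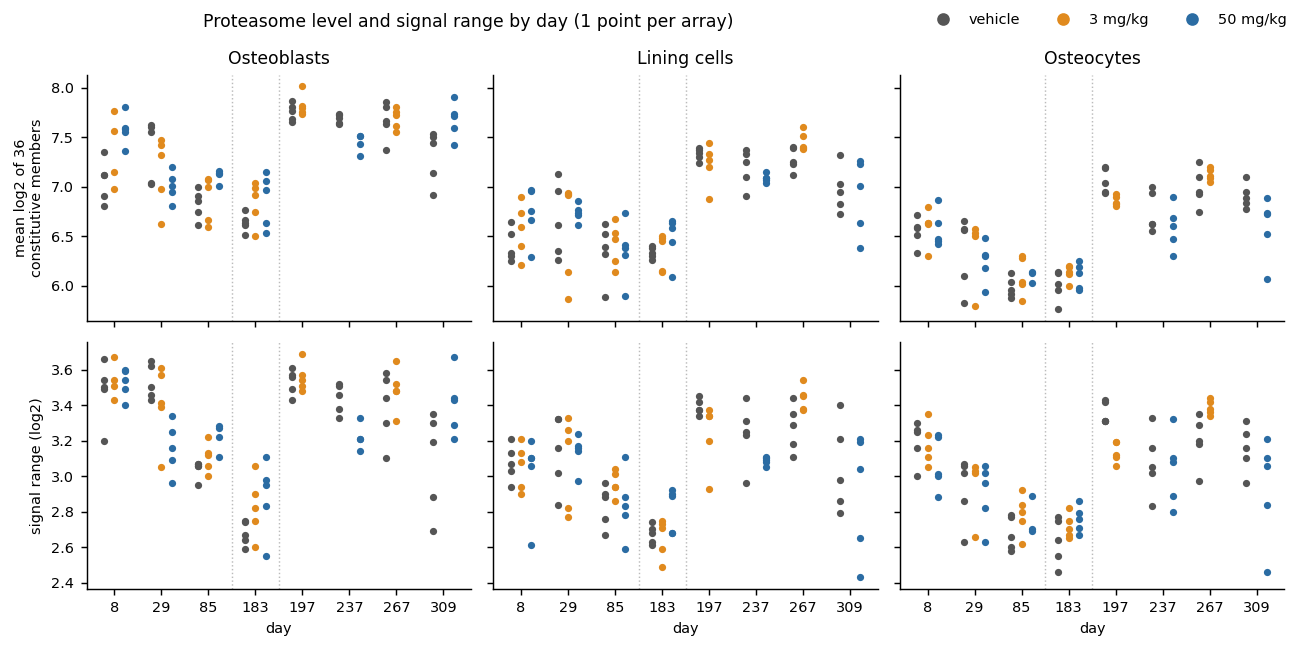
Mean log2 signal of the 36 constitutive proteasome genes (top) and signal range (bottom) of each array (points) by day, for osteoblasts, lining cells and osteocytes and by treatment, with dotted lines between the 3 runs of arrays. In vehicle arrays of each cell type the means of both quantities are lower on day 85 than on day 8, in lining cells by little for the genes (6.35 against 6.41). In osteoblasts of day 29 both are lower at 50 mg/kg (7.01 and 3.16) than in vehicle (7.37 and 3.53).

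Later in dosing, few genes were called in osteoblasts, all of them as higher. On day 85 Psmb8, the immunoproteasome subunit with chymotrypsin-like activity, had vehicle values of 8.21, 8.27, 8.43, 8.44 and 8.48, 8.47, 8.65, 8.80, 8.91 and 8.97 at 3 mg/kg and 8.56, 8.70, 9.17 and 9.45 at 50 mg/kg. Only the lowest treated array lay within the vehicle range. Psmb8 rose over both doses (0.50 ± 0.14, adjusted p = 0.0344, 1.76% of all genes called) and at 50 mg/kg (0.60 ± 0.16, adjusted p = 0.0185, 4.47% of all genes called). At 50 mg/kg Psmc5 (0.70, adjusted p = 0.0453) and Psmd4 (0.73, adjusted p = 0.0438) rose too. Psmd4 had vehicle values of 5.21, 5.25, 5.70, 5.96 and 6.54 and 50 mg/kg values of 6.35, 6.44, 6.53 and 6.53, so the highest vehicle array lay above the treated arrays. At 3 mg/kg none was called in limma (0.0876% of all genes, 3 members and 1060 genes at an unadjusted p under 0.05).

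The 4 calls of day 85, which count Psmb8 over both doses and at 50 mg/kg, were lost without 50 mg/kg array 1 or 2. They were also lost in the fit of the compared groups alone. Without vehicle array 4, 1 call was left, and 2 without vehicle array 1, 2 or 3 or 50 mg/kg array 4. The signal range was 2.95 to 3.07 in vehicle and 3.11 to 3.28 at 50 mg/kg, with no overlap, and 1 call was made with it as covariate. Of the markers, 4 of 5 osteoblast, 4 of 5 megakaryocyte, 2 of 5 endothelial and 1 of 3 osteocyte markers rose and both osteoclast markers fell at 50 mg/kg. Their part was not tested. Over both doses 144 of all genes rose and 57 fell (172 and 109 after quantile normalization).

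On day 183 the scaffold subunit Psmd2, which binds ubiquitin shuttles, rose at each dose. Its vehicle values were 8.93, 8.97, 9.02, 9.17 and 9.20, its 3 mg/kg values 9.19, 9.47, 9.56, 9.61 and 9.75 and its 50 mg/kg values 9.29, 9.46, 9.46, 9.55 and 9.77. The rise was 0.46 at 3 mg/kg (adjusted p = 0.0378, 0.605% of all genes called) and 0.45 at 50 mg/kg (adjusted p = 0.0141, 4.43% of all genes called). The 50 mg/kg arrays were all above vehicle, and 1 array of 3 mg/kg was within the vehicle range. Psmd1, the other large scaffold subunit, rose at 50 mg/kg (0.80, adjusted p = 0.0123) and over both doses (0.65, adjusted p = 0.0236, 3.29% of all genes called). Psmd2 (0.45 ± 0.10, adjusted p = 0.00386) and Psmd12 (0.71, adjusted p = 0.0448) rose over both doses as well. The vehicle values of Psmd1 were 6.51, 6.53, 6.64, 6.72 and 6.83, against 6.60, 7.00, 7.65, 7.93 and 8.05 at 50 mg/kg, 1 of which lay within the vehicle range.

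The 6 calls of day 183 count Psmd1 and Psmd2 in more than 1 comparison. With single arrays left out, the calls lay between 2 (without 50 mg/kg array 3) and 14 (without 50 mg/kg array 5). They were 3 without vehicle array 2 or 3, 3 mg/kg array 4 or 50 mg/kg array 4. Array weights gave 24 calls and the compared groups alone 2. The signal range as covariate gave 3, of which 1 was higher and 2 were lower. Over all genes 374 rose and 131 fell at 50 mg/kg (394 and 335 after quantile normalization) and 259 and 116 over both doses (290 and 305). Of the markers, 3 of 3 granulocyte and 3 of 5 megakaryocyte markers rose and 1 of 2 B-lineage and 1 of 2 osteoclast markers fell at 50 mg/kg. Their part was not tested.

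After dosing had ended, osteoblasts of rats that had received 3 mg/kg showed no called gene on day 197 (0.0789% of all genes called) or day 267 (0% of all genes called). In limma 2 and 0 members and 452 and 388 genes in all were at an unadjusted p under 0.05. After 50 mg/kg, 6 genes had fallen on day 237 (10.7% of all genes called, 7.7% lower), and the vehicle and treated arrays of each were apart. These genes were called on the same arrays, and how often such groups were apart was not counted over all genes. Psma6 had vehicle values of 9.55, 9.74, 9.75, 9.79 and 9.81 and values of 8.69, 8.83, 8.85 and 8.89 after dosing (−0.92 ± 0.20, adjusted p = 0.002). Psme1 had vehicle values of 8.33, 8.48, 8.60, 8.60 and 8.66 and values of 7.64, 7.75, 7.78 and 7.88 after 50 mg/kg (−0.77 ± 0.25, adjusted p = 0.03). The others were Psmd6 (−0.90 ± 0.25, adjusted p = 0.0133), Psma3 (−0.84 ± 0.20, adjusted p = 0.00419), Psmd10 (−0.80 ± 0.27, adjusted p = 0.0371) and Psmb4 (−0.57 ± 0.19, adjusted p = 0.0444). All but Psme1 (5 of the 6) were among the 13 genes that fell on day 29 (83.3% of the day 237 list, 38.5% of the day 29 list). On day 29, 20.6% of all genes had fallen at 50 mg/kg, and the overlap was not computed over all genes. The mean signal range of treated arrays was below that of vehicle on both days (day 29 3.16 against 3.53, day 237 3.22 against 3.44).

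On day 309, by contrast, 8 genes were higher after 50 mg/kg and none was lower (10.5% of all genes called, 8.63% higher). The constitutive mean was 7.67 ± 0.18 (SD, n = 5) after 50 mg/kg and 7.31 ± 0.27 (n = 5) in vehicle. In vehicle of days 197, 237 and 267 it was 7.75, 7.68 and 7.66. Of the 41 genes, 17 were lower in vehicle on day 309 than on day 197, as given below. What part the vehicle level had in these calls was not tested. Psmd14 had vehicle values of 6.58, 6.75, 6.95, 7.00 and 7.20 and values of 7.14, 7.53, 7.66, 7.74 and 7.96 after 50 mg/kg (0.71 ± 0.18, adjusted p = 0.00892). Psme1 had vehicle values of 7.14, 7.43, 7.93, 7.99 and 8.10 and values of 8.09, 8.20, 8.28, 8.35 and 9.07 after 50 mg/kg (0.68 ± 0.23, adjusted p = 0.0434). The groups of all 8 genes overlapped. The others were Psmc6 (0.68), Psmb2 (0.66), Psma3 (0.64), Psma6 (0.59), Psmb7 (0.54) and Psmb4 (0.52). Psma3, Psma6, Psmb4 and Psme1 were lower on day 237 and higher on day 309 (4 genes, 66.7% of the first list and 50% of the second), each time against vehicle arrays of the same day. Such a switch was not counted over all genes. The response itself was not compared between these days.

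Of the proteasome-associated and gene-control genes, 4 of 12 were lower on day 237 (Txnl1 −1.64, Zfand5 −1.03 and Uchl5 −0.96 among them) and 6 of 12 were higher on day 309 (Txnl1 1.28, Zfand5 1.17 and Uchl5 0.91 among them). The signal range was 3.33 to 3.52 in vehicle and 3.14 to 3.33 after 50 mg/kg on day 237, and 2.69 to 3.35 and 3.21 to 3.67 on day 309. With it as covariate 2 of the 6 and none of the 8 calls were made, and after quantile normalization 3 and 2. Over all genes 343 rose and 879 fell on day 237 (379 and 605 after quantile normalization) and 985 rose and 218 fell on day 309 (311 and 263). Of the markers, 2 of 9 leukocyte markers fell on day 237. On day 309, 3 of 9 leukocyte and both osteoclast markers rose, and the part of these cells was not tested. The count of day 237 became 3 without vehicle array 2 or 4 or without treated array 1, 2 or 3. That of day 309 became 0 without vehicle array 3 and in the fit of the compared groups alone, 1 without treated array 3 and 2 without vehicle array 4 or treated array 2. It was 3 without treated array 1, 13 without treated array 4 and 14 without vehicle array 1. Psma3 and Psma6 kept their day 237 calls in every setting and with each array left out.

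In lining cells 1 gene was called in all 16 comparisons with vehicle. Psma7 at 50 mg/kg on day 8 had vehicle values of 7.06, 7.55, 7.62, 7.73 and 7.98, 7.50, 7.81, 8.21, 8.28 and 8.35 at 3 mg/kg and 8.19, 8.24, 8.26, 8.27 and 8.58 at 50 mg/kg. The vehicle and 50 mg/kg arrays were apart, and the rise was 0.72 ± 0.18 (adjusted p = 0.0392, 0.621% of all 11600 genes tested called). The osteoblast marker mean was also apart in these arrays (8.50 to 9.28 in vehicle, 9.35 to 9.95 at 50 mg/kg), with 1 of 5 of its genes called higher, as was 1 of 6 erythroid markers. Their part was not tested. The call ended with 7 of 10 arrays left out in turn, without the array of outlying signal range (50 mg/kg array 3) and in the fit of the compared groups alone. The genes with large rises in osteoblasts had differences of 0.91 ± 0.25 (Psmb2, adjusted p = 0.0614) and 0.57 (Psmb3, adjusted p = 0.155) here. Psmb2 had vehicle values of 4.94, 5.35, 5.43, 5.56 and 5.90 and 50 mg/kg values of 5.71, 6.37, 6.47, 6.55 and 6.61, of which the lowest lay within the vehicle range.

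None of the 41 genes was called in lining cells over both doses or at 3 mg/kg on day 8 (0.31% and 0% of all genes called). None was called on day 29 (0.0431% over both doses, 0% at 3 mg/kg and 0.207% at 50 mg/kg), day 85 (0.0776%, 0.0345% and 0.983%) or day 183 (0.0517%, 0% and 1%). After dosing none was called on day 197 (0.0603%), 237 (1.45%), 267 (1.08%) or 309 (0.405%). In these 15 comparisons limma gave 0 to 9 members and 520 to 1763 genes in all at an unadjusted p under 0.05. The nearest were Psmd3 on day 237 (0.61, adjusted p = 0.0617) and Psma2 on day 267 (0.83, adjusted p = 0.0796), and Psmb10 had a difference of −0.63 at 50 mg/kg on day 85 (adjusted p = 0.116). The constitutive mean on day 8 was 6.41 ± 0.17 (SD, n = 5) for vehicle, 6.57 ± 0.27 (n = 5) for 3 mg/kg and 6.73 ± 0.28 (n = 5) for 50 mg/kg. Over the 12 comparisons during dosing, the 1 call was 6 calls after quantile normalization, 14 with the signal range as covariate and 22 with array weights.

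In osteocytes none of the 41 genes was called on day 8 over both doses (0.287% of 11859 genes called), at 3 mg/kg (0.00843%) or at 50 mg/kg (0.928%). In limma 0, 0 and 2 members and 874, 312 and 1481 genes in all were at an unadjusted p under 0.05. The constitutive mean was 6.54 ± 0.14 (SD, n = 5) for vehicle, 6.59 ± 0.18 (n = 5) for 3 mg/kg and 6.57 ± 0.19 (n = 5) for 50 mg/kg. On day 29 none was called over both doses (0.211%, 1 member at an unadjusted p under 0.05 in limma) or at 3 mg/kg (0%, 0 members). At 50 mg/kg Psmb8 fell by 0.68 on the log2 scale (SE 0.19, adjusted p = 0.0195, 6.5% of all genes called). Its vehicle values were 7.40, 7.71, 7.79, 8.22 and 8.23, its 3 mg/kg values 6.69, 8.00, 8.34 and 8.47 and its 50 mg/kg values 6.51, 6.86, 7.22, 7.67 and 7.71, with overlap between vehicle and 50 mg/kg.

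Beside that fall, Tap1, a peptide transporter from the list of 8 antigen processing genes, fell by 0.60 (adjusted p = 0.0302). Psmb10 had a difference of −0.51 (adjusted p = 0.137). A link between the falls of Tap1 and Psmb8 was not tested. Leukocyte markers (4 of 9) and granulocyte markers (3 of 3) fell and osteocyte markers (5 of 5) rose in the same contrast. The leukocyte marker mean was 6.95 to 7.44 in vehicle and 6.47 to 7.08 at 50 mg/kg. Their part in the result was not tested. The Psmb8 call ended without vehicle array 1 or 5, without 50 mg/kg array 3 or 4 and in the fit of the compared groups alone.

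On day 85 osteocytes had 10 calls over 3 comparisons, which share arrays, so some genes were called more than once. Over both doses 4 genes rose (6.3% of all genes called, 4.43% higher): Psmd10 (0.84 ± 0.20, adjusted p = 0.00424), Psmb4 (0.75 ± 0.20, adjusted p = 0.0152), the lid subunit Psmd7 (0.63, adjusted p = 0.0154) and Psmc3ip (0.71, adjusted p = 0.0279). Psmc3ip is not a proteasome subunit. Psmd10 had vehicle values of 4.30, 5.15, 5.70, 5.95 and 5.99, 5.59, 5.85, 5.99, 6.22 and 6.50 at 3 mg/kg and 5.87, 6.41 and 7.17 at 50 mg/kg, with 1 vehicle array far below the rest and some overlap. At 50 mg/kg, with 3 arrays, Psmd10 (1.06), Psmb4 (0.76), Psmd7 (0.73) and Psmc1 (0.63) rose and Psme4 fell by 0.93 on the log2 scale (10.1% of all genes called). At 3 mg/kg Psmc3ip alone rose (0.99 ± 0.23, adjusted p = 0.00993, 1.46% of all genes called). Psme4 had vehicle values of 6.94, 6.99, 7.39, 7.70 and 8.39, 7.10, 7.20, 7.26, 7.83 and 8.14 at 3 mg/kg and 6.02, 6.80 and 6.84 at 50 mg/kg, which lay below all the others.

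Of the 10 calls of day 85, 3 remained without vehicle array 5 and 5 without 50 mg/kg array 3, and none with array weights or in the fit of the compared groups alone. Osteocyte (4 of 5) and endothelial markers (2 of 5) rose and osteoblast (2 of 5), osteoclast (2 of 3), leukocyte (1 of 9) and granulocyte markers (1 of 3) fell at 50 mg/kg. The means of osteocyte markers (5.81 to 6.67 in vehicle, 6.95 to 7.28 at 50 mg/kg), endothelial markers (3.36 to 3.75 and 4.02 to 4.29) and osteoclast markers (8.45 to 9.01 and 7.41 to 7.85) did not overlap. The part of these cells was not tested. Over all genes 788 rose and 415 fell at 50 mg/kg (903 and 730 after quantile normalization) and 525 and 222 over both doses (604 and 471). Another probe set of Psme4 had a difference of 0.12 and a further one −0.60 at 50 mg/kg, against −0.93 for the one used.

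On day 183 the ATPase Psmc1 rose in osteocytes over both doses (0.50 ± 0.14, adjusted p = 0.0312, 2.06% of all genes called) and at 50 mg/kg (0.57 ± 0.16, adjusted p = 0.0132, 6.38% of all genes called). Its vehicle values were 6.15, 6.24, 6.27, 6.48 and 6.59, its 3 mg/kg values 6.64, 6.74, 6.77, 6.79 and 6.90 and its 50 mg/kg values 6.68, 6.88, 6.96, 7.02 and 7.03. Every treated array was above every vehicle array. For the small dose alone none was called (0% of all genes called, 2 members and 549 genes at an unadjusted p under 0.05 in limma). Psmc1 had 0.42 there (adjusted p = 0.916). Osteocyte (3 of 5) and endothelial markers (2 of 5) rose at 50 mg/kg, and their means did not overlap (osteocyte markers 5.15 to 5.62 in vehicle and 6.55 to 6.86 at 50 mg/kg, endothelial markers 3.33 to 3.72 and 3.95 to 4.39). Of the other lists 1 of 9 leukocyte markers rose and 1 of 5 osteoblast, 1 of 3 osteoclast and 1 of 6 erythroid markers fell. What part these markers had was not tested. Both calls ended without vehicle array 3, 1 remained without vehicle array 2 or 5 or 50 mg/kg array 2 or 5, and 3 calls were the most with an array left out.

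The doses differed in osteocytes for 2 genes over the 4 dosing days (15% of all genes called). Psme4 was lower at 50 than at 3 mg/kg by 0.51 on the log2 scale (−0.51 ± 0.13, adjusted p = 0.00252) and Psmc1 was higher (0.29 ± 0.08, adjusted p = 0.00811). Both calls were kept in every setting and with each array left out. The Psme4 values at 50 mg/kg were 7.77, 8.18, 8.56, 8.70 and 8.89 on day 8, 6.73, 7.40, 7.86, 8.14 and 8.35 on day 29 and 7.34, 7.78, 7.87, 7.96 and 8.25 on day 183. At 3 mg/kg they were 8.25, 8.37, 8.49, 8.61 and 9.11 on day 8, 8.10, 8.29, 8.36 and 9.14 on day 29, and 7.73, 7.98, 8.07, 8.07 and 8.23 on day 183. The ranges of the doses overlapped on these days and were apart on day 85. Osteocyte (4 of 5) and endothelial markers (2 of 5) were called higher at 50 than at 3 mg/kg, and leukocyte (4 of 9), granulocyte (3 of 3), osteoclast (2 of 3), erythroid (2 of 6), osteoblast (1 of 5) and macrophage markers (1 of 7) lower. The osteocyte marker mean at 3 and 50 mg/kg was 6.24 and 6.52 on day 8, 6.14 and 7.12 on day 29, 6.25 and 7.17 on day 85 and 5.94 and 6.70 on day 183, and the osteoclast marker mean of day 85 was 8.81 and 7.68. The part of these cells in both calls was not tested. The count of 2 became 4 without 3 mg/kg array 2 of day 29 or without 50 mg/kg array 1 of day 29. In osteoblasts (2.53% of all genes called) and lining cells (0.647%) none of the 41 genes was called between the doses. In limma 8 and 6 members and 1727 and 1485 genes in all were at an unadjusted p under 0.05.

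After dosing, osteocytes of day 309 had 6 genes lower after 50 mg/kg and none higher (16.4% of all genes called, 11% lower). Psma6 had vehicle values of 8.65, 8.90, 8.91, 8.94 and 9.13 and values of 7.62, 7.92, 8.02, 8.14 and 8.28 after 50 mg/kg (−0.91 ± 0.21, adjusted p = 0.00115). The lid subunit Psmd12 had vehicle values of 5.02, 5.27, 5.57, 5.84 and 5.85 and values of 4.52, 4.56, 4.71, 4.99 and 4.99 after 50 mg/kg (−0.76 ± 0.20, adjusted p = 0.00498). In both genes every treated array was below every vehicle array. Psmb4 (−0.69), Psmb9 (−0.54 ± 0.20, adjusted p = 0.0458), Psmc6 (−0.53 ± 0.16, adjusted p = 0.015) and Psmb7 (−0.53 ± 0.16, adjusted p = 0.0179) fell too, with overlap. On day 267, after 3 mg/kg, Psmd12 was higher (0.76 ± 0.20, adjusted p = 0.0167, 3.63% of all genes called), from vehicle values of 4.67, 4.85, 5.02, 5.24 and 5.57 to 5.59, 5.69, 5.84, 6.00 and 6.01, which did not overlap.

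None was called on day 197 after 3 mg/kg (1.11% of all genes called) or day 237 after 50 mg/kg (13.2%), with 7 members each and 1616 and 3051 genes in all at an unadjusted p under 0.05 in limma. Psma6 was nearest on day 197 (−0.75, adjusted p = 0.0519), with vehicle values of 8.76, 8.78, 8.91, 9.05 and 9.10 and values of 8.08, 8.14, 8.20, 8.21 and 8.22 after 3 mg/kg. These did not overlap.

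The osteocyte signal range on day 309 was 2.96 to 3.31 in vehicle and 2.46 to 3.21 after 50 mg/kg, and with it as covariate Psma6 alone was called. Leukocyte (5 of 9), erythroid (4 of 6) and granulocyte markers (3 of 3) fell and osteoblast (4 of 5) and osteocyte markers (3 of 5) rose in that contrast. Of the interferon response genes, 4 of 12 fell (Rsad2 −1.92, Irf7 −0.84 and Irf9 −0.62 among them). The part of these cells in the result was not tested. The count became 2 without vehicle array 1, 3 without treated array 5 and in the fit of the compared groups alone, and 11 without treated array 3. Over all genes 636 rose and 1305 fell (813 and 933 after quantile normalization). The Psmd12 call of day 267 ended without vehicle array 4 or 5, after quantile normalization and with the signal range as covariate.

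Other differences between responses were tested too. Between the responses of day 183 and day 8 none was called in osteoblasts (0.561% of all genes called, 9 members at an unadjusted p under 0.05), lining cells (0.0172%, 5 members) or osteocytes (0.514%, 2 members). The largest in osteoblasts were those of Psmb7 (−0.72), Psmb3 (−0.71, adjusted p = 0.0909) and Psmb5 (−0.56). Over all dosing days none was called between the responses of osteoblasts and lining cells (0% of all genes called, 1 member) or of lining cells and osteocytes (2.67%, 5 members). Between osteoblasts and osteocytes none was called either (3.57%, 7 members), with Psmd9 nearest (0.45, adjusted p = 0.0571). On day 8 at 50 mg/kg, in a contrast added after the data were seen, the response of osteoblasts was above that of osteocytes for all 41 genes, with a median of 0.50. None was called (0.008% of all 12507 genes tested, 12 members). Against lining cells the median was 0.17 and none was called (0%, 0 members). So the day 8 rise was called in osteoblasts and, for Psma7, in lining cells, and was not shown to differ between the cell types in a fit that takes captures as independent, although some may come from 1 rat.

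The immunoproteasome genes gave 6 calls in the 48 comparisons with vehicle, 4 of them in Psmb8 (3 higher, 1 lower). Those of Psmb8 in osteoblasts on day 85, over both doses and at 50 mg/kg, share arrays. Psmb10 was called once, on day 8 in osteoblasts at 50 mg/kg, and Psmb9 once, in osteocytes after 50 mg/kg on day 309. The share of all genes called in each comparison with such a call is given above, and calls were not tallied this way over all genes. The mean over the 3 genes in osteoblasts was 7.72 for vehicle, 7.78 for 3 mg/kg and 8.13 for 50 mg/kg on day 8 and 7.91, 7.98 and 7.77 on day 29. It was 7.56, 7.73 and 7.90 on day 85 and 7.45, 7.62 and 7.51 on day 183. Psmb9 in osteoblasts on day 8 had vehicle values of 5.84, 5.99, 6.08, 6.28 and 6.42 and 50 mg/kg values of 5.71, 6.09, 6.54, 6.62 and 7.01, which spanned the vehicle range.

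**Figure D4:**
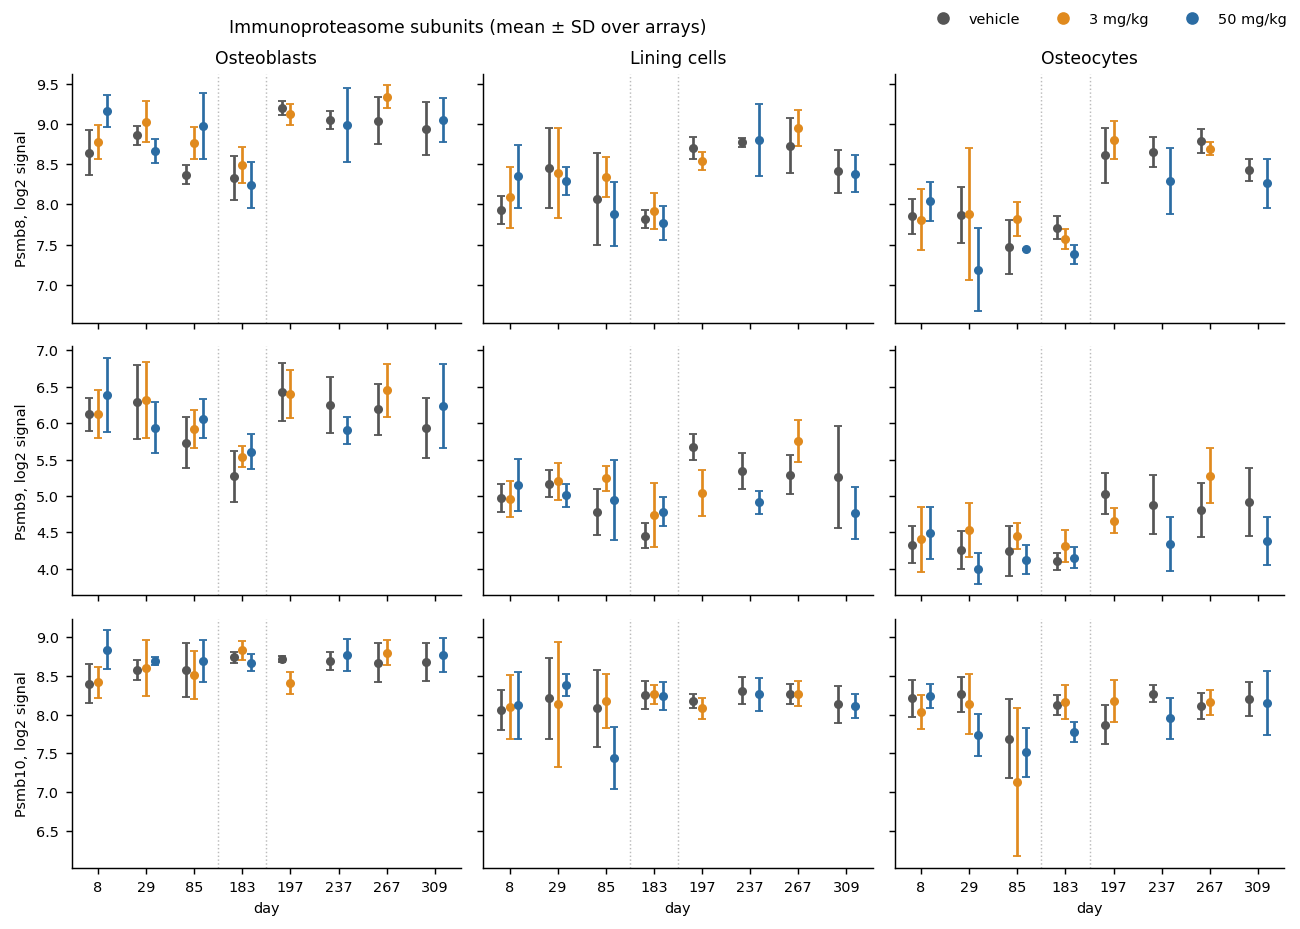
Mean and SD of log2 signal of Psmb8, Psmb9 and Psmb10 (vertical) by day (horizontal) in osteoblasts, lining cells and osteocytes for vehicle, 3 mg/kg and 50 mg/kg. Psmb8 lies above vehicle at 50 mg/kg in osteoblasts on days 8 and 85 and below it in osteocytes on day 29.

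Each immunoproteasome subunit takes the place of a constitutive one, Psmb8 of Psmb5 and Psmb10 of Psmb7, so the difference between the partners was compared between treated and vehicle arrays. In 24 comparisons by two-sided exact permutation tests, 5 gave an unadjusted p under 0.05 and none an adjusted one (smallest adjusted p = 0.216). Psmb10 minus Psmb7 was lower in treated arrays of day 8 by 0.36 in osteoblasts (exact permutation p = 0.027), 0.43 in lining cells (exact permutation p = 0.012) and 0.26 in osteocytes (exact permutation p = 0.036). In osteocytes of day 85 it differed by −0.78 (exact permutation p = 0.0451), the largest of the 5, while Psmb8 minus Psmb5 was higher in the same treated arrays by 0.42 (exact permutation p = 0.0218). None of these passed the adjustment. Psmb9 could not be set beside its partner Psmb6, which has no probe set of its own.

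The vehicle arrays were compared between days as well. In vehicle osteoblasts 2 of the 41 genes were higher and 12 lower on day 85 than on day 8. Together that was 34.1% of the members, where 40.6% of all genes were called (14.7% higher, 25.9% lower). The ATPase Psmc3 had values of 4.99, 5.04, 5.05, 5.35 and 5.61 on day 8 and 3.99, 4.08, 4.29, 4.29 and 4.66 on day 85, a fall of 0.95 on the log2 scale (adjusted p = 0.000319) with no overlap. The lid subunit Psmd3 rose by 0.87 ± 0.19 (adjusted p = 0.000287), from 5.53, 5.95, 6.55, 6.58 and 6.96 to 6.81, 6.92, 7.20, 7.31 and 7.65, with overlap, and Psmb2 rose by 0.54. Psmd12 fell by 0.92, Psmc2 by 0.89, Psma1 by 0.74, Psmc6 by 0.71 and Psme4 by 0.70 on the log2 scale.

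In vehicle osteocytes 23 of the 41 genes fell from day 8 to day 85 and none rose (35.8% of all genes called, 26.3% lower). The falls were in 5 of 6 ATPases, 8 of 14 other regulatory particle genes, 3 of 7 alpha, 3 of 6 constitutive beta, 1 of 3 immunoproteasome and 2 of 3 activator genes. Psmd1 had values of 6.88, 7.23, 7.31, 7.33 and 7.50 on day 8 and 5.05, 5.23, 5.73, 6.56 and 6.60 on day 85 (−1.42 ± 0.27, adjusted p = 6.7e-05). Psmb4 went from 7.52, 7.82, 8.00, 8.03 and 8.07 to 6.20, 6.39, 6.62, 6.78 and 7.18 (−1.26 ± 0.22, adjusted p = 2e-05). Neither gene overlapped between the days. In vehicle lining cells none was called over the same days (3.84% of all genes called, 2 members and 2524 genes in all at an unadjusted p under 0.05 in limma).

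From day 197 to day 309, 17 genes fell in vehicle osteoblasts and none rose (25.5% of all genes called, 19.5% lower). In lining cells 6 fell (5.84% of all genes called, 4.77% lower) and 1 fell in osteocytes (2.85% of all genes called, 2.61% lower). The PA28 gene Psme1 was called in all 3 cell types: −1.21 ± 0.23 in osteoblasts (adjusted p = 0.000105), −0.88 in lining cells and −0.86 in osteocytes (adjusted p = 0.0234). In osteoblasts it had values of 8.73, 8.84, 8.88, 8.89 and 9.30 on day 197 and 7.14, 7.43, 7.93, 7.99 and 8.10 on day 309, with no overlap. Psmd10 (−1.17), Psmb4 (−0.84), Psmb7 (−0.81) and Psmc3 (−0.80) fell in osteoblasts as well, as did Psmd6, by an amount between those of Psmd10 and Psmb4. In lining cells the others that fell were Psma2 (−0.90), Psmc3 (−0.89), Psmc5 (−0.86), Psmd6 (−0.64) and Psmb7 (−0.63).

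The signal range of vehicle arrays fell over the same days, from a mean of 3.48 to 3.04 (days 8 to 85) and 3.53 to 3.08 (days 197 to 309) in osteoblasts. The means went from 3.19 to 2.68 and 3.36 to 3.15 in osteocytes and 3.08 to 2.83 and 3.39 to 3.05 in lining cells. Markers moved over the same days. From day 8 to day 85 osteoblasts had 4 of 5 osteoblast, 5 of 9 leukocyte, 3 of 3 granulocyte, both osteoclast and 3 of 5 endothelial markers lower, and 3 of 6 erythroid markers higher and 1 lower. Their osteoblast marker mean was 10.37 to 10.68 on day 8 and 8.02 to 9.80 on day 85. Osteocytes had 3 of 5 osteoblast, 3 of 9 leukocyte, 2 of 6 erythroid, 2 of 3 osteoclast and 2 of 5 endothelial markers lower, with an osteoclast marker mean of 9.24 to 9.62 on day 8 and 8.45 to 9.01 on day 85. From day 197 to day 309 osteoblasts had 3 of 9 leukocyte, 2 of 6 erythroid and 3 of 5 endothelial markers lower. Their endothelial marker mean was 5.51 to 5.84 on day 197 and 4.82 to 5.21 on day 309, and that of lining cells 5.19 to 5.48 and 4.64 to 5.01. Their part in these counts was not tested. With the signal range as covariate the vehicle comparisons gave 7 calls in osteoblasts between days 8 and 85, all of them higher, 2 in lining cells, and none in the others. Over all genes the median difference in osteoblasts was −0.11 between days 8 and 85 and −0.15 between days 197 and 309, and 0.03 and −0.01 after quantile normalization. That normalization gave 9 higher and 7 lower members in the first and 1 higher and 8 lower in the second. Over all genes 1674 rose and 2961 fell in the first (1950 and 1818 after quantile normalization) and 691 and 2221 in the second (711 and 924). In osteocytes between days 8 and 85 quantile normalization gave 3 higher and 8 lower members. With single arrays left out, the osteoblast count between days 8 and 85 was lowest (9) without vehicle array 4 or 5 of day 8 or array 4 of day 85. That between days 197 and 309 was 8 without array 3 of day 309 and 11 without array 4 of either day. The lining cell count lay between 0 (without array 5 of day 309) and 11 (without array 2 of day 309). It was 1 without array 3 of day 309, 2 without array 1 or 5 of day 197 and 3 without array 2 of day 197 or array 4 of day 309. The osteocyte call of days 197 to 309 ended without array 1, 2 or 3 of day 197 or array 3, 4 or 5 of day 309.

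The cell types were compared in the 40 vehicle arrays of each, quantile normalized together. Between osteoblasts and osteocytes 9 genes were higher and 14 lower in osteoblasts (63.8% of all 11854 genes tested called). The levels given here are the lowest, median and highest log2 value after that normalization. Psmb9 was highest in osteoblasts (4.71, 5.57 and 6.47), then lining cells (4.36, 5.20 and 6.20), then osteocytes (4.26, 4.93 and 5.59), and the difference between osteoblasts and osteocytes was 0.64 ± 0.07. Psme4 had the same order, with 8.66, 9.27 and 10.33 in osteoblasts, 8.36, 9.07 and 9.78 in lining cells and 7.66, 8.77 and 9.34 in osteocytes (0.60 ± 0.07). The ranges of the cell types overlapped widely for both genes, and neighbours in the order differed beyond their errors.

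Psmd14 was higher in osteoblasts (5.65, 6.54 and 7.25) and lining cells (5.75, 6.70 and 7.24) than in osteocytes (4.84, 6.15 and 6.66), by 0.47 and 0.56. The PA28 genes ran the other way: Psme1 had 6.20, 7.42 and 8.60 in osteoblasts, 6.59, 7.65 and 8.46 in lining cells and 6.56, 7.88 and 9.10 in osteocytes, a difference of −0.51 between osteoblasts and osteocytes, and that of Psme2 was −0.39. Psmc1 (−0.51), Psmd13 (−0.37), Psma7 (−0.34), Psmd3 (−0.33), Psmb10 (−0.20) and Psmb5 (−0.12) were lower in osteoblasts than osteocytes too, while Psmb8 was not called, with medians of 8.38, 8.40 and 8.53 in the 3 cell types.

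Between osteoblasts and lining cells 3 genes were higher (Psmb9 0.39 ± 0.07, Psmd6 0.37, Psme4 0.23) and 2 lower (Psmd13 and Psmc1, each −0.28) (33.5% of all genes called). Between lining cells and osteocytes 6 were higher and 14 lower (58.5% of all genes called), with Psmd14 (0.56), Psme4 (0.37) and Psmb9 (0.25) among the first and Psme1 (−0.37), Psme2 (−0.32) and Psma1 (−0.28) among the second. Genes related to antigen presentation were compared after quantile normalization only. Tap1, from the list of 8 antigen processing genes, was higher in osteoblasts and lining cells than in osteocytes (1.74 and 1.54). Of the interferon response genes, 8 of 13 were higher in osteoblasts than osteocytes, where 32.1% of all genes were higher. The markers of leukocytes and other marrow cells that were also higher there are given above, and their part was not tested.

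**Figure D5:**
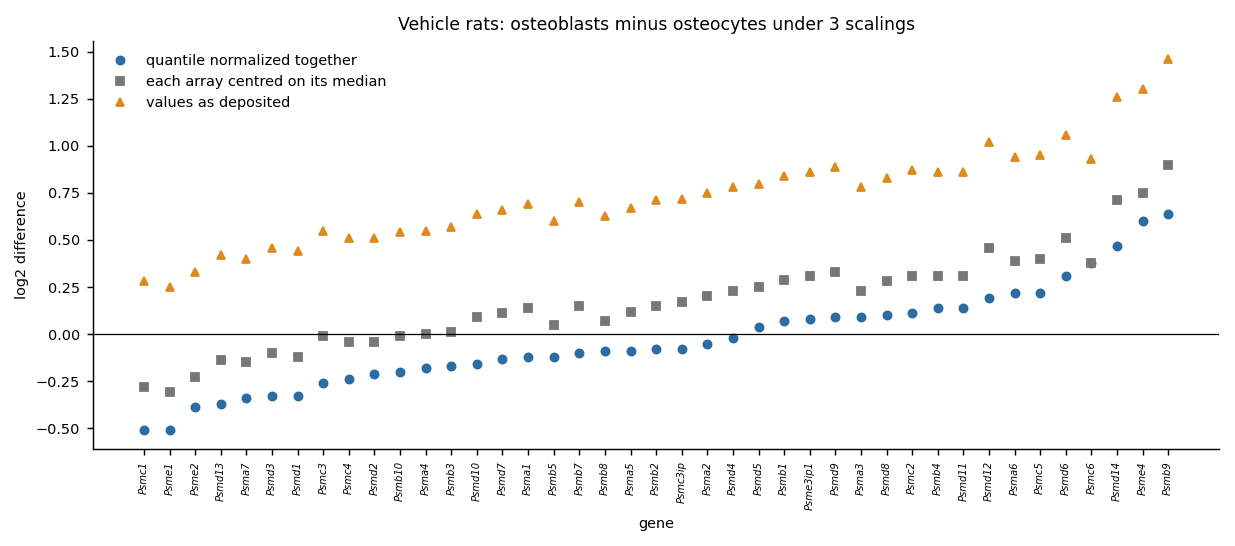
Log2 difference between osteoblasts and osteocytes of vehicle rats (vertical) for 41 proteasome genes (horizontal) after quantile normalization, after centring each array on its median, and as deposited. Psmb9, Psme4 and Psmd14 lie above 0 in all 3 scalings, and as deposited all 41 genes lie above 0.

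These directions rest on the scaling, since the cell types were deposited on different scales. As deposited, all 41 genes were called higher in osteoblasts than in lining cells and than in osteocytes (medians 0.46 and 0.71) and 28 were called higher and none lower in lining cells than in osteocytes (median 0.20). After centring each array on its median, 14 were higher and none lower, 21 higher and 5 lower, and 8 higher and 9 lower in the 3 comparisons (medians 0.14, 0.15 and −0.03), against medians of −0.02, −0.08 and −0.07 after quantile normalization. The PA28 genes and Psmc1 were lower in osteoblasts than osteocytes after quantile normalization and higher as deposited (Psme1 0.25, Psme2 0.33, Psmc1 0.28).

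Over the 48 comparisons with vehicle, Psmc3, Psmd3, Psmd5, Psmd11 and Psme3ip1 were never called. The comparisons are not independent. On dosing days those over both doses and of each dose share arrays, so 1 change can count more than once. Such tallies were not made over all genes. Psmb4 had the most calls, 8 (4 higher, 4 lower), followed by Psma6 and Psmd10 with 5 each (2 higher, 3 lower). Psmc1 (4) and Psma7, Psmb2, Psmd1 and Psmd2 (3 each) were called only as higher, and Psmd6 (3), Psma2 and Psmc2 (2 each) only as lower. Of the 41 genes, 9 had several probe sets, and these did not always move together in osteoblasts at 50 mg/kg on day 8. Psmb5 had 0.62 on the one used and 0.06 and 0.14 on the others, Psme1 0.76 and 0.05, Psmc4 0.69 and −0.06, and Psmd9 1.22 and 0.12. The other Psmd9 probe set was above the array median on 1.7% of arrays. Psmd14 (0.44 against 0.47 and 0.28) and Psmc6 (0.32 against 0.30 and 0.34) were close on all of theirs. Psmd7 had 0.27 against 0.58 and Psmd11 0.06 against 0.44 and 0.03. On day 29 Psmd7 had −0.44 against 0.25. The probe set used for Psmc6 was dim, above the array median on 44.2% of arrays.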

How the data were processed

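The deposited values are RMA signals in the unit intensity on a linear scale, from 2.94 to 28282, and the submitters' processing notes list the tools affy 1.38.1, RMA, R 3.0.1 and Affymetrix Expression Console. The arrays are of RNA amplified from laser captures and biotin labelled, per the labels, and the array medians differ between cell types (3.43 to 3.72 in osteoblasts, 3.14 to 3.36 in lining cells and 2.89 to 3.12 in osteocytes on the log2 scale), so cell types were compared after scaling their arrays together. The log2 of the deposited values was taken here. Of 31042 probe sets, 20826 name 1 gene, 436 several and 9780 none. The members and lists were chosen with earlier results of these data known.

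Each of 14217 genes was represented by its probe set of highest mean, and genes were kept where they were above their array's median in at least 5 arrays of the fit (11412 in osteoblasts, 11600 in lining cells, 11859 in osteocytes, 11854 in vehicle arrays of all cell types and 12507 in all arrays). Within each cell type 1 model with a mean for every group was fitted in limma 3.58.1 (lmFit and eBayes, R 4.3.3), with Benjamini-Hochberg adjustment over all genes and a threshold of 0.05. Errors of log2 differences are standard errors of that fit. Cell types were compared in vehicle arrays, quantile normalized together, with cell type and day as terms. Differences between responses of cell types came from a fit of all arrays, which takes captures as independent. Partner subunits were compared with exact permutation tests in SciPy 1.17.1 (Python 3.11.15), and promoter windows are 250 bases of RefSeq sequence on GRCr8.

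By rule the text names up to 6 called members per direction and comparison, up to 3 of smallest p where none was called, the catalytic, immunoproteasome and PA28 genes and Psmd4 in any comparison, and up to 3 called genes per other list. Further called members of osteoblasts on days 8, 29 and 309 and the erythroid markers were named after their values were seen. Alternatives were no filter, quantile normalization, the mean of probe sets per gene, array weights, a term for the signal range, leaving out arrays whose signal range stood apart, only the compared groups in the fit, other scalings between cell types, and each array left out in turn in the fits of 1 cell type (a random 100 of 120 arrays in the vehicle fit and 100 of 175 in the fit of all cell types). The test was checked on simulated data for osteoblasts at 50 mg/kg on day 8 (11412 genes): of 100 genes changed by 0.5 log2 it called 34, of 100 changed by 1 it called 89, and 1.6% of its calls were false. The simulated noise was drawn once and independently for every gene and array, without shifts shared between genes. The false share among the real calls, where the signal range differs between arrays, cannot be read from it.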

Additional observations from a re-analysis of the deposited data

Results flagged for a closer look

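The response of osteoblasts to 50 mg/kg differed between days 8 and 29 for 26 genes in limma's test of the difference itself (day 8 minus day 29, log2). In the alpha ring these were Psma2 (1.40), Psma6 (1.29), Psma1 (1.16), Psma3 (0.90), Psma5 (0.85) and Psma4 (0.59), and in the constitutive beta ring Psmb4 (1.30), Psmb2 (1.26), Psmb1 (1.06), Psmb3 (1.03), Psmb7 (0.99) and Psmb5 (0.79). The ATPases were Psmc2 (1.39), Psmc5 (1.28), Psmc6 (1.03) and Psmc1 (0.77). Of the other regulatory particle genes they were Psmd6 (1.50), Psmd1 (1.14), Psmd10 (1.09), Psmd14 (1.04), Psmd12 (1.01), Psmd9 (0.86) and Psmd8 (0.80). The PA28 genes Psme1 (1.17) and Psme2 (0.65) and the immunoproteasome gene Psmb8 (0.72) completed the list. The contrast was chosen after seeing the data.

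The constitutive and the immunoproteasome mean were each checked in the groups of 4 or 5 arrays, 118 checks in all, and in 4 of them 1 array lay far from the others of its group, where chance gives about 1 in 20. Osteocyte array 2 of 3 mg/kg on day 29 had a constitutive mean of 5.79, with the others at 6.50 to 6.57. The immunoproteasome mean was 7.82 in osteoblast vehicle array 4 of day 183 (others 7.31 to 7.42), 5.83 in osteocyte array 3 of 3 mg/kg on day 85 (others 6.58 to 6.68) and 7.16 in osteocyte vehicle array 4 of day 8 (others 6.67 to 6.77).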

How the results depend on the processing

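Of 1049 recomputed values of named members, 803 kept their direction and side of the threshold, 223 kept the direction and lost the call, and 23 reversed. No paired analysis was possible because the labels do not tie arrays to rats and replicate numbers only follow the order of deposit. The counts of called members under each setting are given as the main count and then the new one, and the cause was not tested. After quantile normalization they went from 9 to 4 (osteoblasts, both doses, day 29), 6 to 3 (osteoblasts, day 237), 8 to 2 (osteoblasts, day 309), 17 to 9, 6 to 0 and 0 to 1 (vehicle osteoblasts and lining cells, days 197 to 309, and lining cells, days 8 to 85), 23 to 11 (vehicle osteocytes, days 8 to 85), 26 to 16 (day 8 minus day 29), 1 to 6 (lining cells during dosing), 1 to 2 (osteocytes, days 197, 237 and 267), 0 to 1 (doses in osteoblasts and lining cells), 0 to 4 (day 183 minus day 8) and 0 to 2 (cell type responses).

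With the signal range as covariate they became 0 and 0 (osteoblasts on day 29, both doses and 50 mg/kg), 2 (osteoblasts, day 237), 0 (day 309), 1 (osteocytes, day 309), 7 and 0 (vehicle osteoblasts, earlier and later days), 2 and 0 (vehicle lining cells), 0 and 0 (vehicle osteocytes), 10 (osteoblasts against lining cells, main 5), 0 (day 8 minus day 29), 1 and 3 (osteoblasts on days 85 and 183), 14 and 1 (lining cells during and after dosing), 1 (osteocytes, day 183), 2 (osteocytes, days 197, 237 and 267), 2 (doses in osteoblasts and lining cells), 5 (day 183 minus day 8) and 3 (cell type responses). Array weights gave 20 (osteoblasts, 50 mg/kg, day 29), 3 (day 309), 2 and 24 (osteoblasts on days 85 and 183), 22 and 7 (lining cells during and after dosing), 6, 0 and 5 (osteocytes on days 8 and 29 together, 85 and 183), 8 (osteocytes, days 197, 237 and 267), 6 (doses in osteocytes), 20 and 5 (vehicle lining cells and osteocytes, days 197 to 309), 12 (osteoblasts against lining cells), and 2 each for the doses in osteoblasts on day 8, day 183 minus day 8, the cell type responses and those of day 8.

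The fit of the compared groups alone gave 2 and 2 (osteoblasts, both doses, days 8 and 29), 11 and 0 (osteoblasts on days 237 and 309), 3 (osteocytes, day 309), 13 and 3 (vehicle lining cells and osteocytes, days 197 to 309), 0 and 2 (osteoblasts on days 85 and 183), 5 (lining cells after dosing), 0 and 0 (osteocytes on days 8 and 29 together and 85) and 6 (osteocytes, days 197, 237 and 267). The mean of probe sets gave 5 (osteoblasts, day 309), 3 and 0 (vehicle lining cells and osteocytes, days 197 to 309), 2 (lining cells during dosing) and 4 (osteocytes, days 197, 237 and 267). Leaving out the arrays of outlying signal range gave 4 (doses in osteocytes), 9 (vehicle osteoblasts, days 8 to 85), 1 (osteoblasts, day 85), 0 (lining cells during dosing), 4 (osteocytes, days 197, 237 and 267) and 1 (cell type responses). Between cell types, values as deposited gave 41 in osteoblasts against lining cells and against osteocytes, and centred values 14 in the first.

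With arrays left out in turn (every array within a cell type, 100 of the 120 vehicle arrays between cell types and 100 of the 175 of the cell type responses), the counts ran from 2 to 12 and 7 to 21 (osteoblasts on day 8, both doses and 50 mg/kg), 1 to 14 and 8 to 16 (day 29), 0 to 5 (day 85), 2 to 14 (day 183), 3 to 5 (day 237) and 0 to 14 (day 309). In lining cells they ran from 0 to 4 during and 0 to 1 after dosing, and in osteocytes from 0 to 1 (days 8 and 29), 3 to 12 (day 85), 0 to 3 (day 183), 0 to 5 (days 197, 237 and 267), 2 to 11 (day 309) and 2 to 4 (doses). In vehicle they ran from 9 to 17 and 8 to 20 in osteoblasts, 0 to 11 in lining cells on the later days, and 17 to 23 and 0 to 1 in osteocytes. Between vehicle cell types they ran from 5 to 6, 21 to 25 and 18 to 21, and for day 8 minus day 29 from 19 to 29. They ran from 0 to 1 for the doses in osteoblasts on day 8, day 183 minus day 8 and the cell type responses.

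The 23 reversed values were, as deposited, Psma1 0.01, Psma7 0.01, Psmb10 0.09, Psmb5 0.11, Psmc1 0.05 and Psmd7 0.04 (lining cells minus osteocytes), Psmc1 0.22 and Psmd13 0.22 (osteoblasts minus lining cells) and Psma7 0.40, Psmb10 0.54, Psmb5 0.60, Psmc1 0.28, Psmd13 0.42, Psmd3 0.46, Psme1 0.25 and Psme2 0.33 (osteoblasts minus osteocytes). The others were Psmb5 0.05 (osteoblasts minus osteocytes, centred), Psmd6 −0.06 (the same, covariate), Psmd7 0.13 (lining cells minus osteocytes, mean of probe sets), and Psmb1 0.24, Psmb10 0.02, Psmc2 0.04 and Psmd4 0.11 (vehicle osteocytes, days 8 to 85, covariate). With 3 to 5 arrays a group, differences near 0.5 log2 are often missed.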
